A study of Bos taurus with 10 samples.

Results

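Interferon-stimulated genes are the transcripts that cells switch on after they sense virus or receive an interferon signal. The set described here was a list of 45 gene symbols, and a symbol counted as measured where at least 1 probe set of the bovine array carried it as its only symbol. Of the 45, 32 were measured, out of 9155 genes on the array with such a probe set. Each gene was represented by its probe set of highest mean signal, chosen over the 10 arrays together and without regard to group. The remaining 13 genes (ISG20, OAS1Y, OAS1Z, OAS2, IFIT1, IFIT3, IRF1, DDX58, IFIH1, GBP2, BST2, DDX60 and SP110) were not analysed here. OAS1Y and OAS2 appear only on a probe set annotated with both symbols, from which no gene was named.

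The samples were liver biopsies of female Holstein cows, first-calf and older, taken in week 5 of lactation. A control group of 20 cows was fed a control fat protected from the rumen, and a CLA group of 20 was fed a protected fat containing conjugated linoleic acid, that is, isomers of linoleic acid whose double bonds are conjugated. Feeding ran from 3 weeks before calving until week 14 of lactation, with 630 g (dry matter) of a concentrate per cow daily, of which 27.3% was the fat. Apart from the fat, both groups ate the same mixed ration with individually allotted concentrate. Each array measured RNA pooled from 4 cows, with 5 control pools and 5 CLA pools. A pool gives the average of its cows, so 1 cow with a high level and 4 cows with a moderate level cannot be told apart, and all p-values refer to the spread between pools. The comparison asked which genes and pathways of the liver respond to CLA in early lactation.

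Type I and type III interferons act through JAK kinases, which activate a complex containing STAT2 and IRF9 that binds interferon-response elements and starts transcription of antiviral genes. Type II interferon, made by T cells and natural killer cells, favours guanylate-binding proteins, immunoproteasome subunits and antigen transporters, with much overlap between the programmes. In liver, hepatocytes, Kupffer cells and endothelial cells can all respond. In a whole biopsy, a smaller number of cells of a type and less RNA per cell cannot be told apart.

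All values below are log2 signals, so that a difference of 1 is a doubling, and levels are compared between pools for the same probe set, never between genes. Array medians lay between 5.79 and 5.82 in the CLA pools and between 5.83 and 5.85 in the control pools, a difference of -0.031 (exact two-sided permutation p = 0.0079, the smallest that 252 groupings allow). CLA pool 2 and control pool 4 had the lowest mean correlations with the other arrays, 0.990 each against 0.991 to 0.994 for the rest. Differences of the genes most affected are also given without these pools. Where CLA pool 2 is the highest CLA pool of a gene and control pool 4 its lowest control pool, leaving them out can only lower the difference. The difference between 3′ and 5′ probe sets, a sign of RNA integrity, ranged from 1.26 to 2.48 for actin in the CLA pools and from 1.53 to 2.77 in the control pools. For GAPDH these ranges were 2.17 to 2.65 and 1.71 to 2.71. Among pools named below, control pools 1 and 2 and CLA pool 2 stood at 2.77, 2.28 and 1.42 for actin. For GAPDH the same pools stood at 2.49, 1.71 and 2.17. Whether this bears on the genes below was not tested. The hepatocyte markers ALB and TF stood at control means of 14.88 and 14.64. The log2 of the summed signals of 8 such markers, which the brightest weigh on most, lay between 16.9 and 17.0 in each group. The 8 were not equally even. ALB and TF ranged over 1.08-fold and 1.09-fold between pools, but APOA1 ranged over 2.57-fold. Its lowest pool was control pool 4 at 12.39 and its highest CLA pool 2 at 13.75.

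The interferon-stimulated genes varied widely from pool to pool within each feeding group, and they did not separate the groups. The SD between pools within groups had a median of 0.363 over the 32 genes, against 0.152 over all 24016 probe sets and 0.157 over the 16813 probe sets left after the dimmest 30% were set aside. Of the 32, 17 lay above the 90th percentile of all probe sets in this spread. The same number, 17 of 32, differed at least 2-fold between their lowest and highest pool, which 8.45% of all probe sets did. At the other end, IFIT2 and IFI35 ranged over only 1.15-fold and 1.18-fold between their lowest and highest pool.

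**Figure D1:**
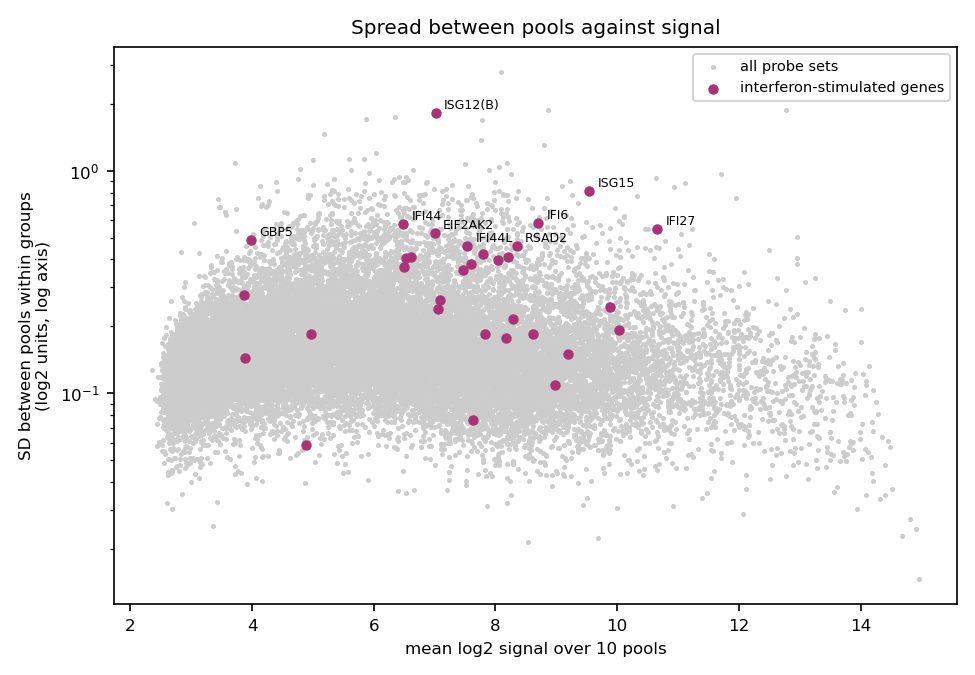
SD between pools within groups (log2 units, log axis) against mean log2 signal for all 24016 probe sets (grey) and for the 32 interferon-stimulated genes (coloured). ISG12(B) and ISG15 stand highest among the genes of the list, at SDs of 1.81 and 0.813, while IFIT2 lies near the lower edge at 0.059.

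The 10 pools did not share the extremes evenly. CLA pool 2 held the highest value of 14 of the 32 genes, against 17.1% of all probe sets, and control pool 1 that of 8, against 8.70%. The lowest value fell in CLA pool 1 for 10 genes, and in control pools 4 and 5 for 7 genes each, against 9.03%, 10.7% and 11.6% of all probe sets. Averaged over the 32 genes with equal weight, the level relative to the control mean was 0.246, 0.174, 0.116, -0.295 and -0.240 in control pools 1 to 5. It was -0.256, 0.473, 0.126, 0.084 and -0.168 in CLA pools 1 to 5. Part of this came from ISG12(B) alone: without it control pool 3 stood at 0.036, and CLA pools 2, 3 and 4 at 0.361, 0.072 and 0.033. Both groups held pools with high and pools with low levels, and the ranges overlapped over most of their length.

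**Figure D2:**
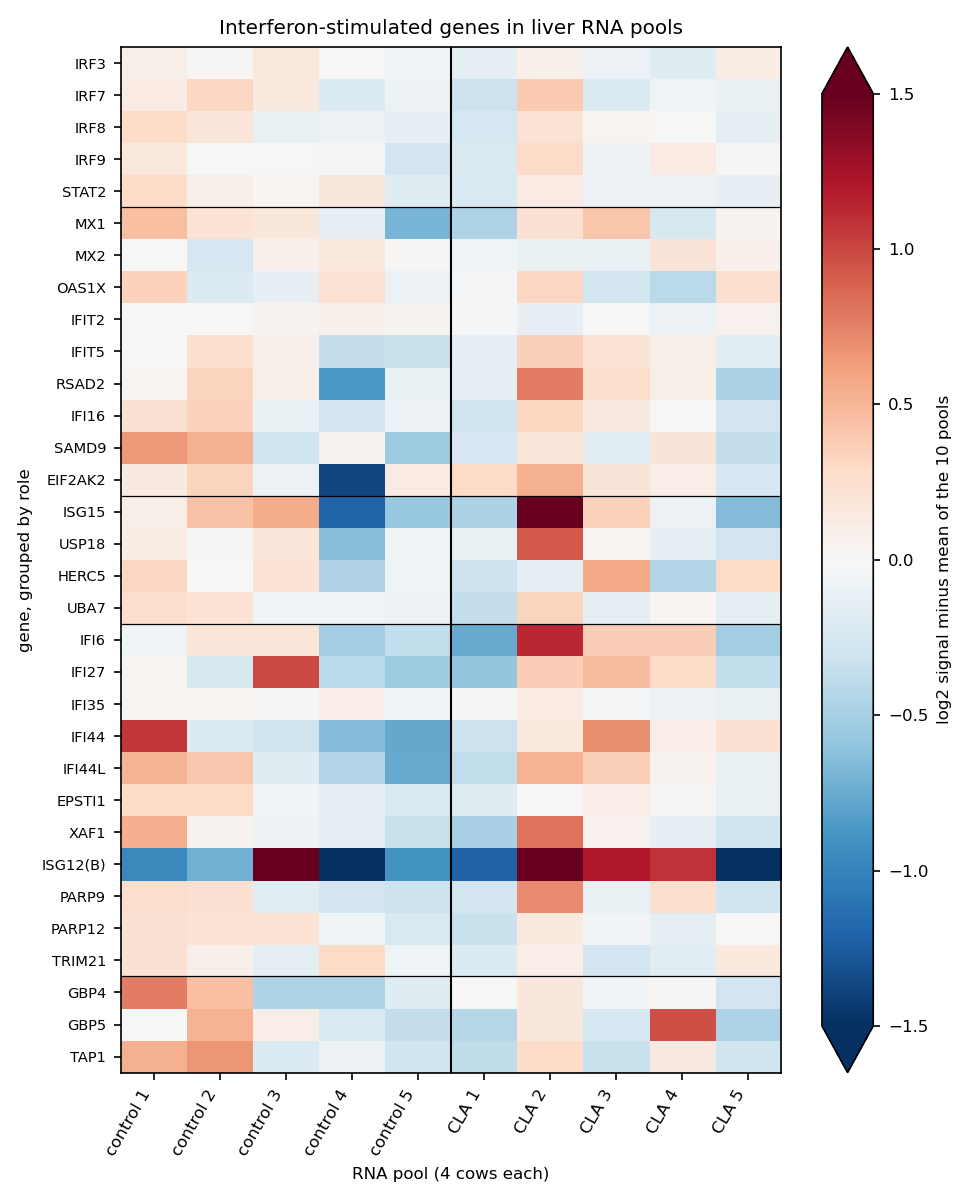
Log2 signal of each of the 32 genes in each of the 10 pools, minus the mean of the 10 pools, with genes in blocks by role and the colour scale ending at 1.5 in either direction. Red columns are CLA pool 2 and, for many genes, control pools 1 and 2, and blue columns are CLA pool 1 and control pools 4 and 5.

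The widest differences between pools were those of ISG12(B) (gene ID 617420), a small hydrophobic protein of the ISG12 family. It stood at 6.05, 6.30, 9.03, 4.72 and 6.12 in control pools 1 to 5 and at 5.81, 10.41, 8.22, 8.10 and 5.44 in CLA pools 1 to 5. Thus 1 control pool and 3 CLA pools were at 8 or above, the other pools lay at 6.30 or below, and no pool lay between. The lowest and the highest pool were 51.6-fold apart, and the SD within groups, 1.81, ranked 4 among the 24016 probe sets. The CLA mean was 7.60 ± 2.02 (SD, n = 5) and the control mean 6.44 ± 1.58 (SD, n = 5). The difference of 1.15 ± 0.93 SE had a 95% confidence interval from -0.88 to 3.18 and did not pass limma's test (Benjamini-Hochberg adjusted p = 0.761). Leaving out CLA pool 2 gave 0.45, leaving out control pool 4 gave 0.72, and leaving out control pool 3 gave 1.80. Without both CLA pool 2 and control pool 4 it was 0.0175.

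IFI27 (gene ID 507138) belongs to the same family and is the direct neighbour of ISG12(B) among the protein-coding genes of the RefSeq cattle annotation. Whether probes of the family pick up each other's transcripts was not tested. IFI27 stood at 10.70, 10.41, 11.64, 10.25 and 10.11 in control pools 1 to 5 and at 10.07, 11.02, 11.12, 10.94 and 10.28 in CLA pools 1 to 5. The 4 highest pools were those of ISG12(B), control pool 3 and CLA pools 2, 3 and 4, over a range of 2.97-fold. The difference between the groups was 0.06 ± 0.29 SE. It became 0.32 without control pool 3 and -0.064 without control pool 5.

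ISG15, a ubiquitin-like protein that is attached to other proteins and also secreted, had the next widest spread. It stood at 9.63, 9.98, 10.10, 8.34 and 8.98 in control pools 1 to 5 and at 9.07, 11.10, 9.89, 9.45 and 8.89 in CLA pools 1 to 5. CLA pool 2 was highest and control pool 4 lowest, 6.77-fold apart, and the other CLA pools lay inside the control range. The CLA mean of 9.68 ± 0.88 (SD, n = 5) and the control mean of 9.41 ± 0.74 (SD, n = 5) differed by 0.27 ± 0.42 SE, which is 1.21-fold with a 95% interval from 0.641-fold to 2.28-fold. Leaving out CLA pool 2 gave -0.081, leaving out control pool 4 gave 0.0075 and leaving out both gave -0.35. The sign thus turned without CLA pool 2. As these are its highest and its lowest pool, a lower difference was fixed by their choice.

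The enzymes that attach and remove ISG15 followed it in part. USP18, the protease that removes ISG15 and also damps the type I receptor, was at 8.31, 8.19, 8.38, 7.56 and 8.14 in the control pools and at 8.11, 9.12, 8.25, 8.06 and 7.92 in the CLA pools. Again CLA pool 2 was highest and control pool 4 lowest, and the difference of 0.18 ± 0.22 SE was -0.031 without the first, 0.037 without the second and -0.17 without both. Of its 3 other probe sets, 1 was also highest in CLA pool 2 (7.48, with the others between 6.46 and 6.91), while the remaining 2 were highest in control pools 1 or 2. UBA7, the activating enzyme, ranged only from 7.93 in CLA pool 1 to 8.62 in CLA pool 2. HERC5, an ISG15 ligase, was highest in CLA pool 3 at 7.08 and lowest in control pool 4 at 6.04. In this group of 4 genes 2 were higher and 2 lower in the CLA pools, from -0.11 for UBA7 to 0.27 for ISG15, and 0 had an unadjusted p under 0.05.

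**Figure D3:**
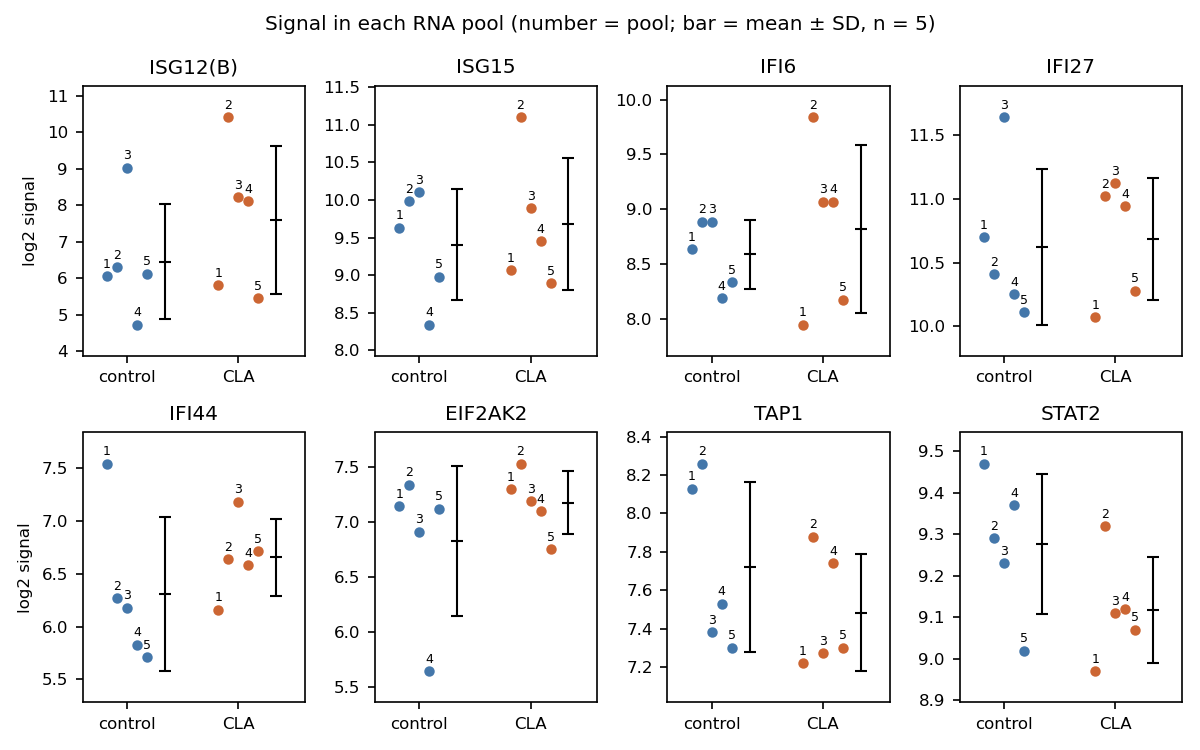
Log2 signal of 8 interferon-stimulated genes in each pool (points, numbered by pool) with the mean ± SD of each group (n = 5). In ISG12(B), ISG15 and IFI6 CLA pool 2 is highest, in EIF2AK2 control pool 4 lies alone at 5.64, and in every panel the groups overlap.

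Among the other small interferon-induced proteins, IFI6, an inhibitor of cell death at the mitochondrion, was at 8.64, 8.89, 8.89, 8.19 and 8.34 in the control pools and at 7.95, 9.84, 9.07, 9.07 and 8.18 in the CLA pools. The CLA pools thus enclosed the whole control range, with SDs of 0.764 and 0.318 (n = 5 each), and the difference was 0.23 ± 0.30 SE. Without CLA pool 2 it was -0.0225, and without CLA pool 2 and control pool 4 it was -0.1225. IFI44, a cytoplasmic protein of unsettled function, was at 7.54, 6.27, 6.18, 5.83 and 5.71 in the control pools and at 6.16, 6.64, 7.18, 6.58 and 6.71 in the CLA pools. Here control pool 1 was highest, and the other 4 control pools lay below all CLA pools but CLA pool 1. The difference of 0.35 ± 0.30 SE became 0.66 ± 0.18 SE without control pool 1 (limma with Benjamini-Hochberg adjustment, adjusted p = 0.480). The 3 other probe sets of IFI44 differed by 0.14 to 0.37, and each was highest in control pool 1 and lowest in control pool 5.

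IFI44L lies next to IFI44 among the protein-coding genes of the annotation. It was at 8.05, 7.94, 7.35, 7.10 and 6.78 in the control pools and at 7.17, 8.06, 7.89, 7.59 and 7.42 in the CLA pools. Its lowest pool, control pool 5, was that of IFI44, while CLA pool 2 and control pool 1 were highest and nearly equal. The difference of 0.18 ± 0.24 SE was 0.016 without control pool 5. XAF1, a partner of the apoptosis inhibitor XIAP, ranged from 7.30 in CLA pool 1 to 8.60 in CLA pool 2, and EPSTI1 only from 7.60 to 8.12. PARP9, which works in a complex with the ubiquitin ligase DTX3L, was highest in CLA pool 2 at 8.18 and lowest in control pool 5 at 7.16.

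At the other end of the block, IFI35 stayed between 7.51 and 7.75 in all pools, with a difference of -0.05 ± 0.067 SE. PARP12, a mono-ADP-ribosyltransferase, was at 10.26, 10.24, 10.25, 9.97 and 9.81 in the control pools and at 9.70, 10.18, 9.99, 9.89 and 10.04 in the CLA pools. Its control pools 1 to 3 lay above every CLA pool, its control pools 4 and 5 did not, and the difference was -0.15 ± 0.11 SE. The 3 other PARP12 probe sets differed by -0.04 to -0.18. TRIM21, a cytosolic antibody receptor and ubiquitin ligase, was at 5.19, 5.04, 4.83, 5.25 and 4.90 in the control pools and at 4.76, 5.06, 4.68, 4.81 and 5.11 in the CLA pools, a difference of -0.16 ± 0.11 SE with overlapping groups.

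The antiviral effectors act on viral RNA and protein synthesis, and 9 of the 17 listed were measured. EIF2AK2, the RNA-activated kinase PKR that halts translation, was at 7.14, 7.34, 6.91, 5.64 and 7.12 in the control pools and at 7.30, 7.53, 7.19, 7.10 and 6.75 in the CLA pools. Control pool 4 lay apart from the other 9 pools, which ranged from 6.75 to 7.53. The difference of 0.34 ± 0.27 SE was 0.0465 without control pool 4 and -0.0425 without control pool 4 and CLA pool 2. A second EIF2AK2 probe set did not show this: it was at 5.30 in control pool 4, its lowest pool was control pool 1 at 4.16, and its difference was 0.07.

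RSAD2 (viperin), which makes a chain-terminating nucleotide, was at 8.39, 8.69, 8.44, 7.49 and 8.25 in the control pools and at 8.21, 9.12, 8.61, 8.44 and 7.88 in the CLA pools. As for ISG15 and USP18, CLA pool 2 was highest and control pool 4 lowest, and the difference was 0.20 ± 0.24 SE. Leaving out CLA pool 2 gave 0.033, leaving out control pool 4 gave 0.0095 and leaving out both gave -0.1575. IFIT5, which binds RNA with a 5′ triphosphate, had the same extremes over a smaller range, from 9.52 to 10.24. MX1, a dynamin-like GTPase that blocks viral ribonucleoproteins, was at 8.50, 8.25, 8.22, 7.93 and 7.35 in the control pools and at 7.58, 8.28, 8.46, 7.81 and 8.10 in the CLA pools. Its extremes were control pools 1 and 5, and the group means of 8.05 each differed by -0.00 ± 0.21 SE.

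SAMD9, a restriction factor of poxviruses, was at 7.18, 7.07, 6.24, 6.59 and 5.99 in the control pools and at 6.28, 6.72, 6.36, 6.73 and 6.18 in the CLA pools. Control pools 1 and 2 stood above all others. The difference of -0.16 ± 0.22 SE was -0.0185 without control pool 1, -0.046 without control pool 2 and -0.32 without control pool 5. IFI16, a sensor of DNA, ranged from 6.79 in CLA pool 1 to 7.43 in control pool 2. IFIT2, an RNA-binding protein that lies near IFIT5 with 2 coding genes between them, was at 4.89, 4.87, 4.93, 4.96 and 4.93 in the control pools and at 4.85, 4.76, 4.88, 4.79 and 4.95 in the CLA pools, with a difference of -0.07 ± 0.062 SE. MX2, the direct neighbour of MX1, and OAS1X, an activator of RNA decay, were both among the dimmest 30% on the array, at control means of 3.88 and 3.89. OAS1X, the dimmest of the set, was at 4.21, 3.66, 3.74, 4.08 and 3.78 in the control pools and at 3.85, 4.18, 3.59, 3.46 and 4.10 in the CLA pools. Over the 9 effectors, 4 were higher and 5 lower in the CLA pools, with a median difference of -0.0040, and 0 had an unadjusted p under 0.05.

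Of the transcription factors of the response 5 were measured, with SDs within groups from 0.109 for IRF3 to 0.240 for IRF7. STAT2, which carries the type I signal into the nucleus with IRF9, was at 9.47, 9.29, 9.23, 9.37 and 9.02 in the control pools and at 8.97, 9.32, 9.11, 9.12 and 9.07 in the CLA pools. Of the CLA pools, 4 lay below 4 of the control pools, and CLA pool 2 and control pool 5 crossed over. The difference of -0.16 ± 0.094 SE had a 95% interval from -0.36 to 0.05 and the smallest p of the 32 genes (limma with Benjamini-Hochberg adjustment, adjusted p = 0.658).

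IRF9 differed by 0.05 ± 0.11 SE, and its highest pool was again CLA pool 2, at 8.46. IRF7, the factor that amplifies type I interferon production, was highest in CLA pool 2 at 7.44 and lowest in CLA pool 1 at 6.73, and differed by -0.12 ± 0.13 SE. Its 2 other probe sets had their highest values elsewhere and differed by -0.04 and -0.10. IRF3, which is present before any signal, spread only from 8.80 to 9.14. IRF8, a factor of macrophages and dendritic cells, differed by -0.06 ± 0.11 SE. Of these 5 genes 1 was higher and 4 lower in the CLA pools, with a median of -0.086.

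The guanylate-binding proteins and the peptide transporter TAP1 had another order of pools. TAP1, which carries peptides to MHC class I molecules, was at 8.13, 8.26, 7.38, 7.53 and 7.30 in the control pools and at 7.22, 7.88, 7.27, 7.74 and 7.30 in the CLA pools. GBP4, a GTPase of cell-autonomous immunity, was at 7.39, 7.07, 6.16, 6.16 and 6.44 in the control pools and at 6.62, 6.79, 6.58, 6.64 and 6.33 in the CLA pools. In both, control pools 1 and 2 lay above every other pool, and the same pools were the highest for SAMD9 and EPSTI1. Control pool 3, the highest control pool for ISG12(B), ISG15 and IFI27, was at 7.38 and 6.16 here. These 4 of 32 genes had control pools 1 and 2 as their top pair, against 3.24% of all probe sets.

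GBP5, a further GTPase of the family, lay among the dimmest 30% of probe sets. It was at 3.98, 4.51, 4.08, 3.75 and 3.62 in the control pools and at 3.55, 4.15, 3.72, 4.95 and 3.52 in the CLA pools. CLA pool 4 and control pool 2 stood highest, and a second GBP5 probe set showed the same pair, at 4.64 and 4.51, with the other pools at 3.70 or below. The 2 remaining GBP5 probe sets, both also among the dimmest 30%, did not. Of these, 1 differed between the feeding groups by -0.26 ± 0.10 SE (limma, unadjusted p = 0.026, Benjamini-Hochberg adjusted p = 0.505). The other differed by -0.06 ± 0.12 SE, and the second probe set by -0.01 ± 0.36 SE. On the probe sets that represent the genes, differences were -0.24 ± 0.20 SE for TAP1, -0.05 ± 0.22 SE for GBP4 and -0.01 ± 0.26 SE for GBP5. On these probe sets all 3 were lower without an unadjusted p under 0.05. Without control pool 1, TAP1 differed by -0.14 and GBP4 by 0.13.

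**Figure D4:**
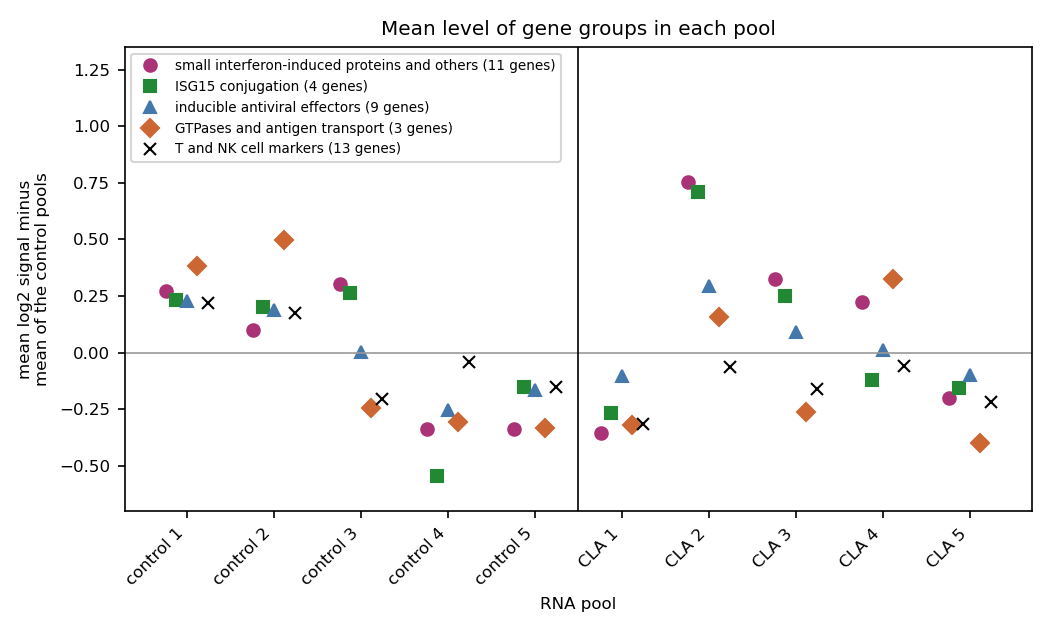
Mean log2 signal of 4 groups of interferon-stimulated genes and of 13 T and NK cell markers in each pool, relative to the mean of the control pools. The small induced proteins and the ISG15 group peak in CLA pool 2, at 0.752 and 0.708, while the guanylate-binding proteins with TAP1 peak in control pool 2 at 0.496 and control pool 1 at 0.383.

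Markers of T and natural killer cells, the source of type II interferon, were also highest in control pools 1 and 2. The mean of their 13 measured genes relative to the control mean was 0.221 and 0.175 there, between -0.204 and -0.041 in the other control pools, and between -0.316 and -0.058 in the CLA pools. The log2 of the summed signals of these markers, which the brightest weigh on most, ranged from 10.2 to 10.7 in the control pools. In the CLA pools it ranged from 10.1 to 10.3, and 0 of the 13 lay among the dimmest 30% of probe sets. Of these markers 11 of 13 were lower in the CLA pools, where 55.9% of all probe sets were. ZAP70, a T cell receptor kinase, was the 1 with groups that did not overlap (from 6.95 to 7.46 for control and from 6.58 to 6.86 for CLA), and in the limma fit it was not called (adjusted p = 0.332). In CLA pool 4 the guanylate-binding proteins and TAP1 averaged 0.326, and the T and NK cell mean was -0.058. That average came from the dim GBP5, at 4.95 there against a control mean of 3.99. TAP1 (7.74 against 7.72) and GBP4 (6.64 against 6.64) stood close to their control means in this pool. IFNG, the type II interferon itself, was among the dimmest 30%, with 3.63 and 3.89 in control pools 1 and 2 and 3.11 to 3.42 in all other pools. The mean of 9 Kupffer cell and macrophage markers was 0.236 in control pool 1 and -0.286 in CLA pool 2. In CLA pool 2, CD14 (9.60) and TIMD4 (7.25) lay furthest below their control means of 10.78 and 8.09. C1QA, C1QB, C1QC and MSR1 also lay below theirs there, while CD68, CSF1R and VSIG4 lay above. Between the feeding groups, 8 of the 9 were lower and 0 higher in the CLA pools. The log2 of the summed signals of these 9 markers spanned 12.8 to 13.4 in the CLA pools and 12.9 to 13.4 in the control pools. The part of these cells in the interferon-stimulated genes was not tested.

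CLA feeding, compared over all 10 pools, left no interferon-stimulated gene past the test. In limma with Benjamini-Hochberg adjustment over all probe sets, 0 of 32 had an adjusted p under 0.05, as did 0.00% of all probe sets. At an unadjusted p under 0.05 limma counted 0 of the 32, against 8.89% of all probe sets, and the unmoderated test also counted 0. The pools of the 2 groups overlapped for all 32 genes, whereas 1.97% of all probe sets had groups that did not overlap. In direction, 19 of 32 were lower in the CLA pools, against 55.9% of all probe sets, and 13 were higher, against 43.5%. The median difference was -0.014, beside -0.018 over all probe sets and -0.010 over 9155 genes with 1 probe set each.

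**Figure D5:**
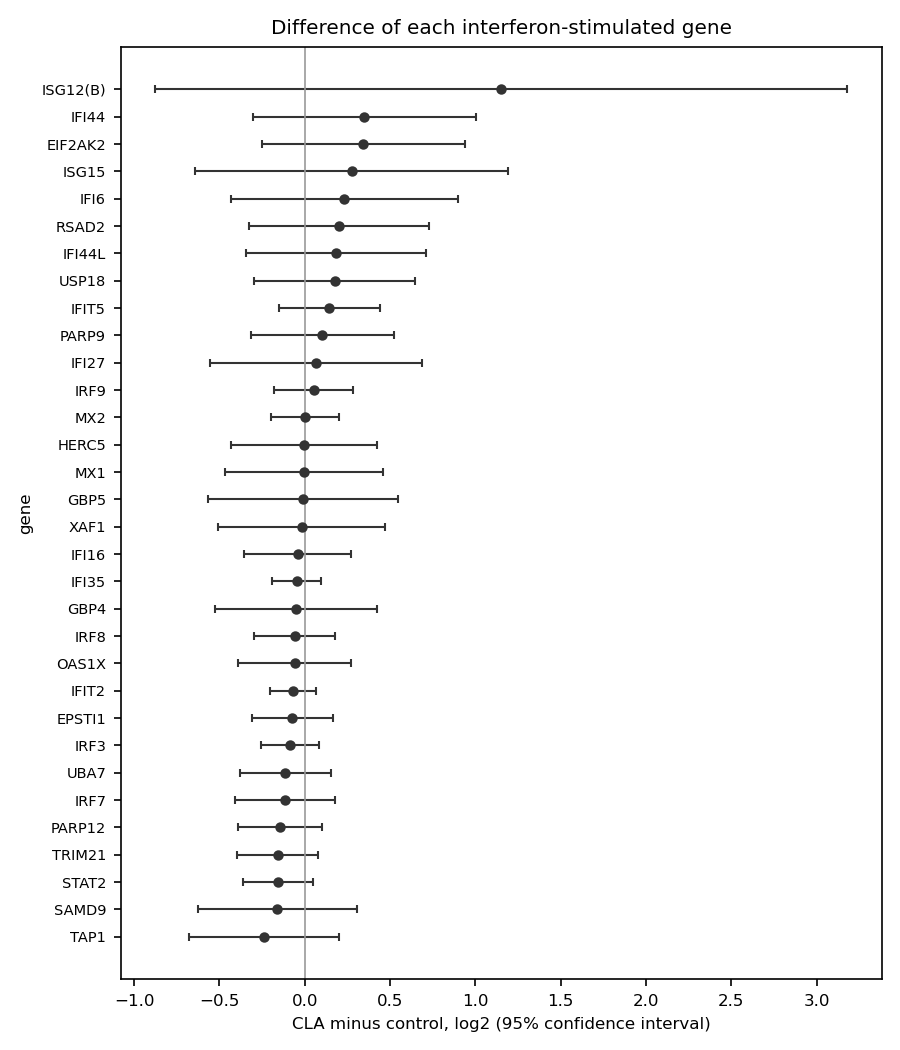
CLA minus control difference (log2) of each of the 32 interferon-stimulated genes, with the 95% confidence interval of limma's fit. Every interval includes 0, from IFIT2, whose interval runs from -0.20 to 0.07, to ISG12(B), whose interval runs from -0.88 to 3.18.

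The intervals show which sizes of change these pools can bound. For MX1 the 95% interval of the CLA to control ratio ran from 0.724-fold to 1.37-fold, for RSAD2 from 0.798-fold to 1.65-fold, and for STAT2 from 0.778-fold to 1.03-fold. For ISG12(B) it ran from 0.545-fold to 9.07-fold, so that neither a doubling nor a modest decrease lay outside it. The balance of directions rested on few pools, and the sign of the difference turned for 15 of the 32 genes when some single pool was left out. Without CLA pool 2, 24 of 32 genes were lower (median -0.072, with 56.9% of all probe sets lower). Without both CLA pool 2 and control pool 4, the split was 28 lower to 3 higher (median -0.12), and 54.7% of all probe sets were lower. In the mean over these genes these are the highest CLA pool (0.473) and the lowest control pool (-0.295). A shift towards lower was thus fixed by the choice of these pools, and nothing is drawn from the split of this fit. In that fit 0 of the 32 passed limma's test with Benjamini-Hochberg adjustment, and 1, IRF7, had an unadjusted p under 0.05 (-0.30 ± 0.098 SE, adjusted p = 0.571), against 7.96% of all probe sets. Without control pool 1, control pool 2 or CLA pool 1 the median turned positive (0.049, 0.005 and 0.050). After subtraction of array medians 17 genes were higher and 15 lower (median 0.017).

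Upstream and beside these genes, 45 of 87 other genes of the interferon pathway were measured. Limma with Benjamini-Hochberg adjustment over all probe sets called 0 of them, 31 were lower in the CLA pools, against 55.9% of all probe sets, 14 were higher, and the median difference was -0.058. At an unadjusted p under 0.05 there was 1 of 45, against 8.89% of all probe sets, namely IKBKE, a kinase that activates IRF3 and IRF7. It was at 5.38, 5.33, 5.57, 5.38 and 5.65 in the control pools and at 5.02, 5.40, 5.03, 5.36 and 5.19 in the CLA pools. CLA pools 2 and 4 overlapped the lowest control pools, and the difference was -0.26 ± 0.098 SE (adjusted p = 0.482).

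Of 4 interferon genes measured, IFNB1, IFNG and IFNT2 lay among the dimmest 30% and IFNAC at a control mean of 4.52, and their differences ran from -0.23 for IFNG to 0.09 for IFNT2. The receptor chains and kinases measured (IFNAR1, IFNAR2, IFNGR2, IL10RB and JAK1) differed by -0.11 to 0.04. Among other targets of interferon, the immunoproteasome subunits PSMB8, PSMB9 and PSMB10 cut proteins into peptides for MHC class I. Each was highest in control pool 2 and next in control pool 1, like TAP1. PSMB8 stood at 7.56, 7.86, 7.14, 7.31 and 7.27 in the control pools and at 6.98, 7.46, 6.99, 7.23 and 6.95 in the CLA pools, a difference of -0.31 ± 0.14 SE. CXCL10, a chemokine that draws activated T cells, was at 8.08, 8.12, 6.78, 6.96 and 6.68 in the control pools and at 6.95, 7.51, 6.66, 8.18 and 6.35 in the CLA pools. Its 4 highest pools, control pools 1 and 2 and CLA pools 2 and 4, were those of TAP1, and the difference was -0.19 ± 0.37 SE.

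Outside the pathway, the 5 genes whose values over the 10 pools, with group means removed, were most like the mean of the 9 antiviral effectors were ITGAD, TASOR, B3GNT2, ABRACL and RASA1. Pearson's r lay between 0.946 and 0.960 over the 10 pools, a description with no test, since they are the extremes of 9078 genes searched. ITGAD, an integrin subunit of leukocytes, stood at 7.95, 8.01, 7.58, 7.28 and 7.42 in the control pools and at 7.27, 7.98, 7.70, 7.34 and 7.43 in the CLA pools. Its highest pools were control pools 1 and 2 and CLA pool 2.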

How the data were processed

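The values deposited by the authors are log2 signals of probe sets on 10 arrays of the Affymetrix bovine genome design. The submitters' processing notes name Affymetrix Expression Console 1.1 and RMA, which corrects background, equalizes arrays and summarizes probes. Their order and settings are not given in the sources used here. RMA gives no detection call, so dim genes are named by the lowest 30% of mean signals (under 4.385), and precision is set by the number of arrays.

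Of 24128 probe sets, 112 controls were set aside and 24016 tested. Genes were named through the platform annotation (13292 probe sets with 1 symbol, 86 with several, 10638 with none). All 32 measured genes had the same symbol in the RefSeq table of assembly ARS-UCD2.0, which was used for names and neighbours only. Differences are CLA minus control from lmFit and eBayes of limma 3.58.1 (R 4.3.3), without covariates, adjusted over all 24016 probe sets by Benjamini-Hochberg. On simulated data for this comparison (24016 probe sets, 50 changed per fold) the fit recovered 38% of 1.3-fold, 66% of 1.5-fold, 90% of 2-fold and 98% of 3-fold changes, with 11 false calls. The changed probe sets were drawn at random from all 24016, whose median SD within groups was 0.152, against 0.363 for the 32 genes. These shares therefore do not hold for the interferon-stimulated genes, whose recovery was not simulated.

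Values in every pool are given for genes of smallest p (8), of largest spread (8), the brightest and dimmest, and for others chosen after their values were seen. The genes and lists were chosen with earlier results of these data known. Pool numbers are shared between groups but did not pair the samples (correlations of deviations from -0.086 to 0.092). Alternatives were other normalizations, a filter on dim probe sets, other variance models, array weights, averaging all probe sets of a gene, the pool number as a block, and pools left out. The fit without CLA pool 2 and control pool 4 together was added after the data were seen.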

Additional observations from a re-analysis of the deposited data

Results flagged for a closer look

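In 4 places a single pool stood far from the other 4 of its group, among 88 groups of 5 examined. Chance gives such a gap in about 1 of 20 groups, so 4 among 88 are no more than chance would give. USP18 was 9.12 in CLA pool 2, with the next CLA pool at 8.25. EIF2AK2 was 5.64 in control pool 4, with the next control pool at 6.91. The mean correlation of CLA pool 2 with the other arrays was 0.9897, with the next CLA pool at 0.9933. The difference between the 3′ and 5′ GAPDH probe sets was 2.65 in CLA pool 5, with the next CLA pool at 2.25. What lies behind these gaps was not tested.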

How the results depend on the processing

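None of the 32 genes had a Benjamini-Hochberg adjusted p under 0.05 in limma under any of the 20 alternatives, the lowest being 0.480, and the pool number as a block (replicate block) also called 0 of 24016 probe sets and 0 of the 32. Over all probe sets the fit without CLA pool 2 and control pool 4 called 1. In the fit of all 10 arrays 216 had an unadjusted p under 0.05 with at least a 1.3-fold difference. At an unadjusted p under 0.05 the 32 genes gave 1 after quantile normalization and 1 after cyclic loess normalization (STAT2 both times). Of all 24016 probe sets, 1917 and 1975 passed there, beside 2135 (8.89%) in the fit of all 10 arrays. Array weights gave 2 (STAT2 and PARP12), against 2176 probe sets. The fit without CLA pool 2 and control pool 4 gave 1 (IRF7), against 1912. With any single pool left out the 32 genes gave 0 to 1, against 1575 to 2297 probe sets. The number of genes lower in the CLA pools ran from 12 to 24, and the median difference from -0.072 to 0.050, with any single pool left out. Of the 32 genes, 13 kept the sign of their difference under all alternatives. The cause of these shifts was not tested. Genes with a wide spread between pools, ISG12(B) above all, leave wide intervals with 5 arrays a group.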

Other observations

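Of the 23 other interferon targets measured, 3 are given here, chosen after their values were seen. Those highest in CLA pool 2 were DTX3L, LGALS3BP, PARP14, PSME1 and TRIM5. Of all probe sets 17.1% were highest there, and of those outside the dimmest 30% it was 21.0%. RTP4, a chaperone of receptors that restricts viruses, was at 6.44, 7.41, 6.41, 5.36 and 6.41 in control pools 1 to 5 and at 6.13, 6.21, 6.72, 6.55 and 6.21 in CLA pools 1 to 5. Control pool 4 was its lowest pool, as for ISG15, while CLA pool 2 lay inside the range of the other pools. TRIM25, a ubiquitin ligase that activates the RNA sensor RIG-I, was at 10.64, 10.95, 11.04, 10.08 and 10.82 in the control pools and at 11.13, 10.29, 11.16, 10.82 and 10.69 in the CLA pools. Its 2 lowest pools were control pool 4 and CLA pool 2, which were the lowest and the highest for ISG15. IDO1, which degrades tryptophan, was highest in control pool 2 at 7.11 and lowest in CLA pool 1 at 6.01.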
